A study of Mus musculus with 14 samples.

Results

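Tendon-like cells marked by Chad and Angptl7 made up a small share of the mouse bone marrow stroma that was profiled 1 cell at a time. They were chosen by measured values: cells of the authors' cluster 1 with at least 500 detected genes, under 10% mitochondrial UMIs and at least 3 UMIs of Chad and Angptl7 together. A UMI (unique molecular identifier) stands for 1 captured RNA molecule. There were 470 such cells among 5381 retained stromal cells, of 6071 deposited. The library labelled WT mouse held 287 of them among 2190 retained cells, and the library labelled PyMT mouse held 183 among 3191. PyMT mice carry the polyoma middle T oncogene and develop mammary tumours. The labels do not state the promoter of the transgene, the ages of the mice, how many gave each library or the gates of the sort. The same genes were read in 8 bulk libraries of bone marrow mesenchymal stem cells (MSC), 4 labelled tumour-free and 4 tumour-bearing with Py230, a mouse mammary tumour line of PyMT origin. The study asked how the transcriptomes of bone marrow cells look when a breast tumour grows elsewhere.

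Tendon is built from parallel fibrils of type I collagen. Small leucine-rich proteoglycans, such as fibromodulin and keratocan, bind these fibrils and help to set their width, and lysyl oxidases crosslink them. The transcription factor scleraxis (Scx) directs the tendon fate, and tenomodulin (Tnmd) is a membrane protein of mature tenocytes. Chondroadherin, the product of Chad, is a leucine-rich protein of cartilage and tendon that binds collagen and integrins. Angptl7 encodes a secreted angiopoietin-like protein.

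The 250 bases before the start sites of Chad, Angptl7 and Fmod are shown because Chad and Angptl7 chose the cells and Fmod, which did not, stood far above the rest of the stroma. Scleraxis belongs to the basic helix-loop-helix family, whose members bind the E-box, CANNTG, and each E-box is in capitals. The windows come from RefSeq on GRCm38.p6 and run 5′ to 3′ on the strand of the gene. The Chad window is chr11:94564797-94565046 on the plus strand, that of Angptl7 is chr4:148500463-148500712 on the minus strand, and that of Fmod is chr1:134037004-134037253 on the plus strand.
Chad: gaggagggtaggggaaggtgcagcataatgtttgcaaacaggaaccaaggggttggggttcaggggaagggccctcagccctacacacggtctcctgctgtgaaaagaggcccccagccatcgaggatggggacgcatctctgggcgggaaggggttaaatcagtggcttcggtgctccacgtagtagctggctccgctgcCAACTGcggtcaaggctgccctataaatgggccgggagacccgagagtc
Angptl7: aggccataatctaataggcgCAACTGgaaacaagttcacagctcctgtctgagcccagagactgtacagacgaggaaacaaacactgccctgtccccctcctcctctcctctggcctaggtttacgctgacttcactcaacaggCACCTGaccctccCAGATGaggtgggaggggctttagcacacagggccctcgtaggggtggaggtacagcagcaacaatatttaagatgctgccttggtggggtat
Fmod: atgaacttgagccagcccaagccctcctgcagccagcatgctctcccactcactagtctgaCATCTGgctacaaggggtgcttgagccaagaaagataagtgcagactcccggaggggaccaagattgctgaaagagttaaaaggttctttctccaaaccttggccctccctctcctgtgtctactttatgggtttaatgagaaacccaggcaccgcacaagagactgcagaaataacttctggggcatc
Counting back from the start site, the Chad E-box began at base -49, those of Angptl7 at bases -230, -106 and -93, and that of Fmod at base -189. Of the 8 markers, 7 matched a window and 5 of these held an E-box. CANNTG reads the same on either strand, and 66.2% of all 32851 windows of that length held it. At least 3 copies, as in Angptl7, stood in 12.2% of them. TATAAA, sought on both strands, stood in the Chad window and in 12.4% of all windows.

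In the GENCODE M21 annotation of GRCm38, the assembly that mm10 names, Chad spans chr11:94565047-94569127 on the plus strand and Angptl7 spans chr4:148495183-148500460 on the minus strand. Both are protein-coding. Chad overlaps Acsf2, Angptl7 overlaps Mtor, and Scx, at chr15:76457452-76459458, overlaps Bop1, each on the opposite strand.

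Chad and Angptl7 set the members apart by construction, so their levels are a description. Summed over the members of a library, Chad stood at 4005 and 1510.2 CPM (UMIs scaled to a common total) in WT and PyMT, against 27.8 and 27.7 CPM in the other cells of cluster 1. Angptl7 stood at 2427 and 2570.3 CPM in members, against 29.1 and 25.6 CPM. Some members lay close to the threshold, and a threshold of 5 UMIs left 267 WT and 164 PyMT members. In the WT library 9 cluster 1 cells held 2 UMIs of the pair and 15 held 3, and in the PyMT library 14 held 2 and 12 held 3. The median member held 26 UMIs of the pair in the WT library and 13 in the PyMT library. Outside cluster 1, 9 WT and 10 PyMT cells reached 3 UMIs, 6 and 7 of them in cluster 2. As a background, a Chad UMI was found in 1.54% of WT and 1.12% of PyMT cells of cluster 0, which is rich in markers of LepR+ stroma, at median depths of 3591 and 4422 UMIs.

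**Figure D1:**
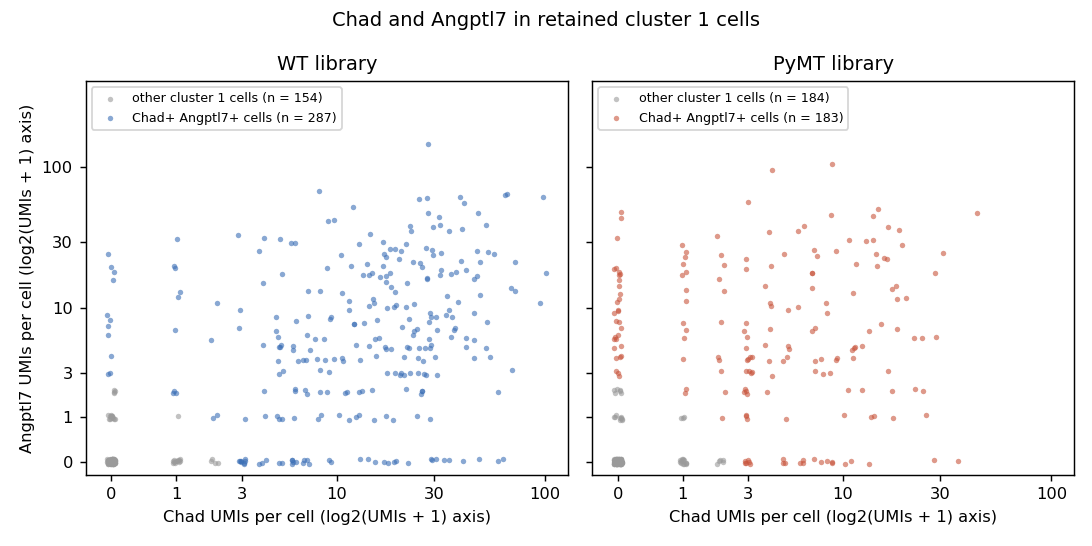
UMIs of Chad (x axis) and Angptl7 (y axis) in each retained cluster 1 cell on log2(UMIs + 1) axes, for the WT library (287 members, 154 other cells) and the PyMT library (183 members, 184 other cells). More PyMT than WT members lie at 0 Chad UMIs (31 against 11 cells).

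Among the members, Chad and Angptl7 were mostly found in the same cells. Of the WT members, 235 (81.9%, 95% Clopper-Pearson interval 76.9 to 86.2) held UMIs of both genes, 41 of Chad alone and 11 of Angptl7 alone. Of the PyMT members, 130 (71.0%, 63.9 to 77.5) held both, 22 Chad alone and 31 Angptl7 alone. The threshold on the pair left out cells with fewer UMIs, so these shares hold for members only. In the other cluster 1 cells, Chad was found in 17 WT and 21 PyMT cells and Angptl7 in 18 and 18. Those were mostly different cells. All intervals on cells and UMIs here cover counting error only. Keratocan (Kera), a proteoglycan of cornea and tendon, was higher beside Angptl7 alone, at 1145 CPM in WT and 754 in PyMT cells, than beside Chad alone, at 117 and 298 CPM. Lubricin (Prg4), the lubricant of joint and tendon surfaces, had the opposite order, with 3551 and 2255 CPM beside Angptl7 alone and 10144 and 4749 CPM beside Chad alone. These groups are small, and the Kera values beside Chad alone rest on 25 and 31 UMIs.

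The markers that did not choose the cells were high in them. All 6, Fmod, Cilp2, Kera, Tnmd, Scx and Thbs4, were at least 2-fold higher in members than in all other retained stromal cells in both libraries, and of 10677 genes compared this way 343 (3.21%) were. Fibromodulin (Fmod) stood at 5381 and 4352 CPM in WT and PyMT members, against 125 and 70.2 CPM in the rest. Thrombospondin 4 (Thbs4), a matrix protein of tendon and muscle attachments, stood at 6799 and 5291 CPM, against 434 and 179. Scx and Tnmd, the fate and maturity markers, were higher in the members as well. Scx stood at 322 and 194 CPM, against 8.76 and 6.06 CPM. Tnmd stood at 249 and 229 CPM, against 15.2 and 10.4 CPM. Cilp2, a cartilage intermediate layer protein, stood at 639 and 402 CPM, against 9.78 and 5.72 CPM. The clusters were drawn from these same genes, so no difference between clusters was tested.

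Not every member held every marker. Thbs4 UMIs were found in 95.1% of WT and 93.4% of PyMT members and Fmod in 86.8% and 88.0%. Scx was found in 65.5% (59.7 to 71.0) and 49.7% (42.3 to 57.2), Kera in 38.7% and 35.5%, and Tnmd in 32.8% and 26.8%. In cluster 0, Scx was found in 0.102% and 0.223% of cells; median depths were 3591 and 4422 UMIs there and 4750 and 4278 in members. After each cell was thinned to 1500 UMIs, which left out 5 WT members, Scx remained in 35.5% of WT and 24.0% of PyMT members and Chad in 90.4% and 63.9%.

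**Figure D2:**
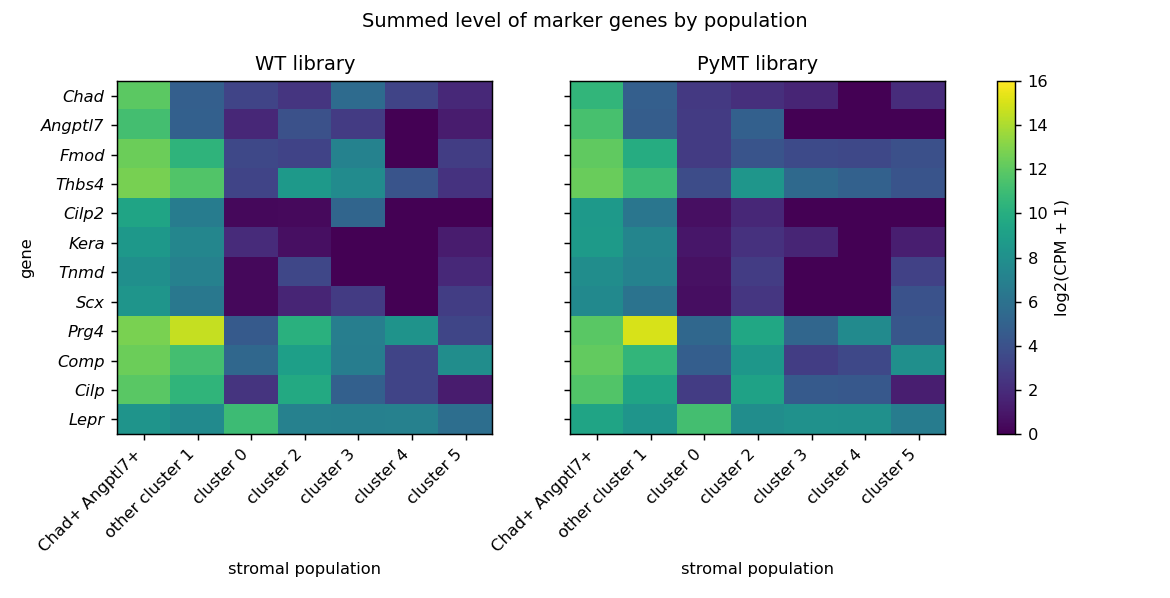
Summed level of 12 genes in the members, the other cluster 1 cells and clusters 0, 2, 3, 4 and 5, as log2(CPM + 1) on a colour scale, for the WT and the PyMT library. The 8 markers are highest in the members, Prg4 in the other cluster 1 cells and Lepr in cluster 0.

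Of the 25 genes standing highest over the rest of the stroma, 6 that are no markers are given here. Cartilage oligomeric matrix protein (Comp), a thrombospondin of tendon and cartilage, stood at 5453 and 4637 CPM, against 439.8 and 174. The growth factor Fgf9 stood at 149.7 and 301 CPM, against 6.597 and 12.4. The alarmin Il33 stood at 459 and 316 CPM, against 37.3 and 23.3. Nt5e, the ecto-enzyme CD73, is a surface protein often used to define stromal cells. It stood at 143 and 179.6 CPM, against 8.76 and 8.24. Ndufa4l2, a mitochondrial protein, stood at 627 and 454 CPM, against 44.9 and 28.3. The neuropeptide gene Npy stood at 124 and 86.3 CPM, against 0.796 and 0.885, but came from 26 WT and 13 PyMT members. In the other direction, 1465 genes (13.7%) were at least 2-fold lower in members in both libraries.

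Genes most like Chad were sought over 6 clusters in 2 libraries, 12 points that share their libraries. Cilp2 was nearest (Pearson r of log2(CPM + 1) 0.953), then Myrip (0.947), Npy (0.925), Smpd1 (0.905) and Coch (0.897). These points were whole clusters, with members and other cells together. Among the members, Coch was found in 11 WT cells and 1 PyMT cell.

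Several proteoglycans and thrombospondins were high in the members. Of 14 small leucine-rich proteoglycans compared with the rest, 8 were at least 2-fold higher in members in both libraries and 1 lower, and Chad, which chose the cells, is 1 of the 8. Of 5 thrombospondins 4 were higher, and of 20 fibril collagens 2 were higher and 3 lower. Of all genes compared with the rest, 3.21% were higher and 13.7% lower, so the fibril collagens that were lower lay near the share of all genes. Fmod, Kera and Thbs4 belong to these families and were already counted among the markers above. Decorin (Dcn), the proteoglycan with the most UMIs here, stood at 32172 and 34480.3 CPM in members and 15109 and 11155 CPM in the other cluster 1 cells. Prolargin (Prelp), which anchors collagen to basement membranes, stood at 3789 and 3625 CPM, against 1201 and 776 CPM. Lumican (Lum), a proteoglycan of collagen fibrils, ran the other way, at 379.7 and 673 CPM in members and 1924 and 2080.1 CPM in the other cluster 1 cells.

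Markers of other cell types were low or partial in the members. The 12 endothelial markers summed to 7.69 and 24.5 CPM in WT and PyMT members, with 6 and 2 of them at 0 UMIs. The 18 immune markers summed to 6.99 and 21.0 CPM, with 13 and 11 at 0. The 9 skeletal muscle markers summed to 16.8 and 12.8 CPM, with 4 at 0 in each library. These 3 lists were thus near 0 in the members, while several other lists were not. Markers of Pi16+ fibroblasts summed to 3115 and 2863 CPM, against 10813.5 and 9198 CPM in cluster 2. Osteoblast markers summed to 457 and 821 CPM, against 63018.5 and 40409 CPM in cluster 5. Ibsp, an osteoblast marker with 570 and 542 UMIs in members, was found in 10.5% of WT and 18.0% of PyMT members. The 3 richest cells held 71.2% and 52.6% of its UMIs, and without them it stood at 115 and 300 CPM. Chondrocyte markers summed to 287 and 1187 CPM, against 3044 and 1580 CPM in cluster 5. The 11 pericyte and smooth muscle markers summed to 234 and 238 CPM, with 7 and 3 at 0, against 107 and 129.6 CPM in cluster 2. In the other cluster 1 cells they summed to 271 and 473 CPM, and in cluster 3 to 1517 and 2017 CPM. Of the 8 compared with the rest, 5 were at least 2-fold lower in members in both libraries and 2 at least 2-fold higher. Of all genes compared this way, 13.7% were lower and 3.21% higher. The 2 were Acta2, a smooth muscle actin, at 49.0 and 37.3 CPM, and Cspg4, the NG2 proteoglycan, at 157 and 171 CPM. The 10 markers of LepR+ mesenchymal cells, the main stroma of the marrow, summed to 1046 and 2229 CPM, with 0 of them at 0 UMIs, against 35442 and 31285 CPM in cluster 0. Lepr, the leptin receptor, was found in 58.9% (53.0 to 64.6) of WT and 74.9% (67.9 to 81.0) of PyMT members. In cluster 2, at median depths of 5655 and 5206 UMIs, Lepr was found in 22.9% and 39.0% of cells.

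The nearest population was the rest of cluster 1, 154 WT and 184 PyMT cells. Of 4816 genes compared, 66 (1.37%) were at least 2-fold higher in members in both libraries and 121 (2.51%) at least 2-fold lower. Summed over cells, Prg4 stood at 25127 and 34022 CPM in these cells, against 6951 and 3823 CPM in members. The typical cell ran the other way: the median member held 24 and 13 Prg4 UMIs, and the median other cell 4.5 and 5. The richest other cells held 2799 and 5516 Prg4 UMIs. On the summed scale all 5 markers of synovial lining fibroblasts, Prg4 among them, were lower in members. The chloride channel protein Clic5 stood at 622 and 629 CPM in the other cells and had 12 UMIs in WT and 0 in PyMT members. With a floor of 3 UMIs over the PyMT members, Clic5 was at least 179.9-fold lower there. Col22a1, a collagen of tissue junctions, stood at 109.7 and 313 CPM in the other cells and had 1 UMI in the members of each library. Periostin (Postn), a matricellular protein, stood at 333 and 361 CPM in the other cells and had 12 and 0 UMIs in members. The osteoblast gene Bglap was also low in members, at 7.69 and 9.33 CPM against 367 and 130.1 CPM.

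On the other side, the members held more of several matrix genes. Of the 6 markers that did not choose the cells, 5 were at least 2-fold higher in members than in the other cluster 1 cells in both libraries, and Tnmd, at 132 and 135 CPM in the other cells, was not. Fmod stood at 1332 and 979 CPM in the other cells and Cilp2 at 103 and 77.9 CPM. Lysyl oxidase (Lox), the collagen crosslinking enzyme, stood at 438 and 772 CPM in members, against 128 and 212 CPM. The protease inhibitor Timp3 guards matrix from breakdown and stood at 1992 and 2004 CPM, against 595 and 584 CPM. Clusterin (Clu), an extracellular chaperone, stood at 2323 and 2405 CPM, against 597 and 347 CPM. Thrombospondin 1 (Thbs1), an activator of latent TGF-beta, stood at 420.3 and 1139 CPM, against 124 and 230.4 CPM.

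**Figure D3:**
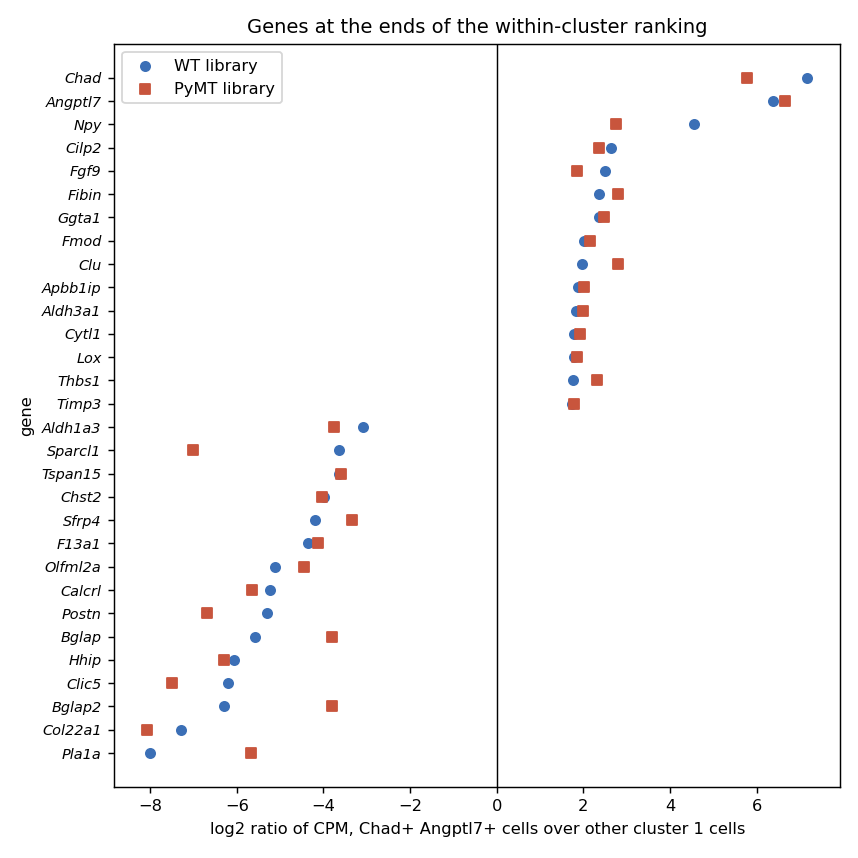
Log2 ratio of CPM in members over the other cluster 1 cells (x axis) for the 15 genes highest and the 15 lowest in members (y axis), with circles for WT and squares for PyMT. Chad and Angptl7, which chose the cells, head the upper group, and Col22a1 and Clic5 are among the lowest.

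The PyMT library held a smaller share of members. They were 13.1% (11.7 to 14.6) of retained WT stromal cells and 5.73% (4.95 to 6.599) of retained PyMT cells, with 95% Clopper-Pearson intervals. Within cluster 1 they were 65.1% (60.4 to 69.5) of 441 WT cells and 49.9% (44.6 to 55.1) of 367 PyMT cells. The threshold rests on Chad and Angptl7, whose summed levels over cluster 1 were lower in the PyMT library, as given below. The share within cluster 1 is thus not a result apart from those levels. Cluster 0 held 977 of the retained WT and 2242 of the retained PyMT cells, and a share of all cells moves with it. With 1 library per genotype there was no test, and genotype, mouse, sort and library cannot be told apart. The libraries shared 2 cell barcodes, 0 of them in members.

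Chad itself was lower in the PyMT library. Over all retained cluster 1 cells, with no threshold on it, Chad stood at 2629 and 736 CPM in WT and PyMT, a log2 ratio of -1.84 (95% Poisson interval -1.92 to -1.75). Later ratios are on the same scale, with the same interval after them. Angptl7 stood at 1597 and 1241 CPM over the same cells (-0.36, -0.44 to -0.29). The pair thus differed in size of ratio, with Chad farther from 0. Among members, where the threshold acts on both genes, the log2 ratio was -1.41, -1.495 to -1.32 for Chad and 0.08, 0.00 to 0.16 for Angptl7. Of the other 6 markers, Scx (-0.73, -0.997 to -0.47), Cilp2 (-0.67, -0.85 to -0.49), Thbs4 (-0.36, -0.41 to -0.31) and Fmod (-0.31, -0.36 to -0.25) were lower in PyMT members. For Tnmd (-0.12, -0.38 to 0.13) and Kera (0.18, -0.02 to 0.37) the intervals held 0.

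Of 5532 genes with at least 50 UMIs over the members of both libraries, 209 (3.78%) were at least 2-fold higher in PyMT members and 65 (1.17%) at least 2-fold lower. Of the genes past 2-fold 76.3% were thus higher; median-ratio scaling gave 65.5% (154 and 81 genes). The median gene had a log2 ratio of 0.11 and 60.6% of genes had ratios above 0, against which the medians and counts of the lists are to be read. Some extreme ratios came from 1 or a few cells. Msmp had 634 UMIs, all in 1 PyMT member. A set of 11 cartilage genes, Col2a1 and Col10a1 among them, had 681 UMIs in PyMT members, 439 of them in 1 cell, and 28 in WT members. Cytl1, a cytokine-like gene of cartilage, had 642 UMIs in WT members, 374 of them in 1 cell. When each gene's highest cell in each library was left out, a step added after the data were seen, 185 of the genes stayed at least 2-fold higher and 65 lower.

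Immediate-early genes, which respond within minutes to signals and also to tissue dissociation, were higher in PyMT members. All 26 with enough UMIs had a ratio above 0 and 17 were at least 2-fold higher, with a median of 1.10. Egr1, a zinc finger factor that tendon cells also use, stood at 1261 and 3843 CPM (1.61, 1.52 to 1.69). Fos, a subunit of AP-1, stood at 4157 and 9719 CPM (1.23, 1.18 to 1.27). Egr2, of the same family as Egr1, stood at 18.9 and 111 CPM (2.55, 1.92 to 3.23). The list had a median of 0.91 in the other cluster 1 cells and 0.96 in cluster 2, so stromal cells that were not members showed it too. The part of dissociation in it was not tested.

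The other transcription factors of tendon were divided. Without Egr1 and Egr2, 4 of 6 tested had ratios above 0, near the share of all genes, and 1 was 2-fold higher, with a median of 0.51. Mohawk (Mkx), a homeobox factor of tendon maturation, stood at 61.5 and 93.3 CPM (0.60, 0.15 to 1.05), and Sox9, a factor of cartilage and of tendon attachments, at 167 and 233 CPM (0.48, 0.20 to 0.76). Scx was thus the 1 of these 3 that was lower in PyMT members.

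Several inflammatory and niche genes were higher in PyMT members. Of 12 NF-kB and cytokine genes with enough UMIs, 9 had ratios above 0, against 60.6% of all genes, and 5 were 2-fold higher, with a median of 0.89, against 0.85 in the other cluster 1 cells. Among members with no UMI of Lepr, Adipoq, Ptprc or Pecam1 the median was 1.61. The chemokine Cxcl1 stood at 68.5 and 302 CPM (2.14, 1.80 to 2.49). Of 14 factors of the blood stem cell niche, 13 had ratios above 0 and 5 were 2-fold higher. Their median was 0.82, against 0.17 in the other cluster 1 cells and 0.41 in cluster 2, but -0.24 in members thinned to 1500 UMIs. The growth factor Ptn stood at 17.5 and 80.5 CPM (2.20, 1.52 to 2.92). Vegfa, which drives vessel growth, stood at 16.1 and 66.5 CPM (2.05, 1.33 to 2.81).

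Cxcl12, the chemokine that holds blood stem cells in the marrow, stood at 308 and 869 CPM in WT and PyMT members (1.498, 1.33 to 1.67). The 3 richest cells gave 68.9% of its UMIs in WT and 54.1% in PyMT members, and without them the levels were 95.8 and 399 CPM. Cxcl12 was found in 36.6% of WT and 62.3% of PyMT members, and in 53.2% and 67.9% of the other cluster 1 cells. It was found in 68.0% and 87.3% of cluster 2 cells, 41.8% and 65.0% of cluster 3 and 61.9% and 85.5% of cluster 5. In cluster 0 the shares were 100% and 99.9%, and in cluster 4 they were 91.6% and 93.4%. The LepR+ markers moved with these genes: 9 of 10 had ratios above 0, with a median of 0.95, and their part in the niche result was not tested. Lepr stood at 308 and 649.6 CPM (1.08, 0.90 to 1.26). Among members with no UMI of Lepr, Adipoq, Ptprc or Pecam1, 114 in WT and 43 in PyMT, the Cxcl12 ratio was 1.14, and over all members thinned to 1500 UMIs it was 0.74. Among members with under 5% mitochondrial UMIs it was 2.38, and the median of the LepR+ markers was 1.72.

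Several proteases stood higher in PyMT members. Of 9 proteases and inhibitors, 7 had ratios above 0 and 5 were 2-fold higher, with a median of 1.03. The median was 0.06 among members with no UMI of Lepr, Adipoq, Ptprc or Pecam1 and 0.28 over genes with at least 200 UMIs. Collagenase 3 (Mmp13) had 4 UMIs in WT and 261 in PyMT members, in 4 and 21 cells, and the richest PyMT cell held 48.7% of them. The other cluster 1 cells, by contrast, held 537 and 493 CPM of Mmp13. The aggrecan-cleaving protease Adamts1 stood at 28.7 and 162 CPM (2.499, 1.99 to 3.04) and Adamts5, of the same family, at 110.5 and 226 CPM (1.03, 0.72 to 1.35).

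Genes of TGF-beta and GDF signalling, a list of ligands, receptors and targets, leaned higher in PyMT members. Of 16 tested, 13 had ratios above 0, with a median of 0.54 against 0.02 in the other cluster 1 cells. Smad7, a feedback inhibitor of the pathway, stood at 84.6 and 159.8 CPM (0.92, 0.55 to 1.28). Thbs1 had a ratio of 1.44, 1.29 to 1.59. The matricellular protein gene Ccn1 stood at 276 and 697 CPM (1.34, 1.15 to 1.53).

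Fibril collagens leaned lower in PyMT members. Of 18 tested, 7 had ratios above 0, with a median of -0.31 against 0.05 in the other cluster 1 cells. The intervals of 11 lay below 0 and of 4 above. Past 2-fold the order was reversed, with 3 higher and 0 lower, against 3.78% and 1.17% of all genes. Col2a1, a cartilage collagen with a ratio of 6.24, was found in only 3 WT and 4 PyMT members. The richest PyMT member held 125 of its UMIs, and without the highest cell of each library the ratio was 3.20. Col1a1, a chain of type I collagen, stood at 5829.5 and 3532 CPM (-0.72, -0.78 to -0.66). Type XIV collagen (Col14a1), at 18.2 and 79.3 CPM, ran the other way (2.12, 1.45 to 2.84). The proteoglycans had a median of -0.02, with epiphycan (Epyc), at 44.8 and 203 CPM in 8 and 20 cells, higher (2.18, 1.76 to 2.62). The collagen chaperone Serpinh1 stood at 706 and 376 CPM (-0.91, -1.10 to -0.73), and Lox was higher (0.82, 0.66 to 0.98). Prg4 was lower in PyMT members (-0.86, -0.92 to -0.81) and higher in the PyMT cells of the rest of cluster 1 (0.44, 0.41 to 0.46).

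Genes of the unfolded protein response and nuclear genes of the respiratory chain were mostly lower. Of 21 genes of the unfolded protein response, 6 had ratios above 0 and 3 were 2-fold lower, with a median of -0.36 against -0.20 in the other cluster 1 cells. Manf, a secreted protein of the endoplasmic reticulum, stood at 669 and 288 CPM (-1.21, -1.42 to -1.01), and Sdf2l1, from the same compartment, at 136 and 44.3 CPM (-1.61, -2.16 to -1.11). Of 50 nuclear genes of the respiratory chain, 8 had ratios above 0, with a median of -0.36 in members, -0.32 in the other cluster 1 cells and -0.37 in cluster 2. The mitochondrially encoded genes ran the other way, with 12 of 13 above 0 and a median of 0.22 in members, 0.33 in the other cluster 1 cells and 0.23 in cluster 2. Ribosomal protein genes had a median of -0.24, with 3 of 53 above 0. The calcium-binding protein gene S100g stood at 206 and 39.7 CPM (-2.38, -2.94 to -1.86). Gm42418, a gene model that overlaps ribosomal RNA sequence, stood at 58035 and 23583 CPM and differed as much outside the members, with ratios of -1.30 in members and -1.39 in cluster 2.

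Other lists lay on both sides of the median of all genes. The 9 tested genes of cholesterol synthesis had a median of 0.57, against -0.09 in the other cluster 1 cells, with 9 above 0 but 2 with an interval above 0. Of 13 acute-phase genes and STAT3 targets, 11 were above 0, with a median of 0.53, against 0.40. All 4 tested secreted Wnt inhibitors were above 0, with a median of 0.72, against 0.49. Of 11 matricellular genes 8 were above 0, and the median was 0.71, or 0.00 among members with no UMI of Lepr, Adipoq, Ptprc or Pecam1. Collagen processing (-0.16 over 23 genes) and elastic fibres (-0.19 over 12) had medians below 0. The interferon list had a median of 0.02 over 7 genes, heat shock 0.02 over 15, and hypoxia and glycolysis 0.05 over 20. Within the hypoxia list, adrenomedullin (Adm), a vasodilator peptide, stood at 21.0 and 73.5 CPM (1.81, 1.16 to 2.49).

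**Figure D4:**
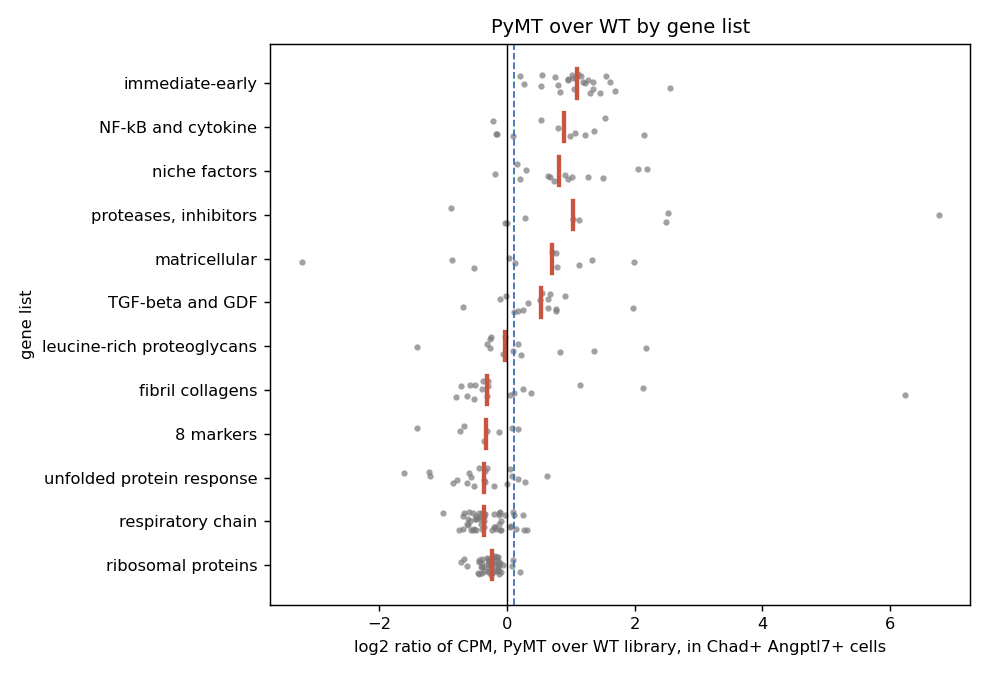
Log2 ratio of CPM in PyMT over WT members (x axis) for each gene with at least 50 UMIs (points) in 12 gene lists (y axis), with red bars for list medians and a dashed line for the median of all 5532 genes, 0.11. The immediate-early list lies wholly above 0 (median 1.10).

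In the bulk MSC libraries the tendon markers were faint. Total counts were 4301375 to 9811251 reads per library, and the 8 markers together reached 13.5 to 52.5 CPM in tumour-free and 26.3 to 285 CPM in Py230 libraries. Sums over lists in the bulk libraries are scaled to the library total alone, without TMM, while levels of single genes below are TMM-scaled. In bulk RNA, fewer cells of a type and less RNA per cell cannot be told apart. The labels do not say whether the libraries came from separate mice, so the tests speak only of spread among the libraries at hand. Of 16317 genes tested with edgeR's quasi-likelihood test at a Benjamini-Hochberg adjusted p of 0.05, 324 (1.99%) rose and 447 (2.74%) fell with Py230 tumours. Kera and Tnmd, with 88 and 36 reads in all, did not reach the test, and 0 of the other 6 markers passed it. At an unadjusted p under 0.05 edgeR gave 2, Angptl7 and Thbs4, and DESeq2 called the same 2 after adjustment and gave no adjusted p for Scx. The 10 LepR+ markers summed to 31106 to 33497 CPM in tumour-free and 17539 to 20296 CPM in Py230 libraries, with 5 of 10 passing as lower and 0 as higher, and their part in the marker values was not tested. The 23 factors of the blood stem cell niche summed to 26714 to 29113 CPM in tumour-free and 15577 to 17758 CPM in Py230 libraries. Of these 23, 1 passed as higher and 11 as lower. The 5 synovial lining markers summed to 32.1 to 87.5 CPM in tumour-free and 85.1 to 308 CPM in Py230 libraries, with 0 of 5 passing.

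Angptl7 stood at 0.649, 0.998, 1.39 and 0 CPM in tumour-free libraries 1 to 4 and at 5.17, 1.74, 2.63 and 12.7 CPM in Py230 libraries 1 to 4. All Py230 libraries were above all tumour-free ones, as was the case for 5.36% of all 16317 genes tested. The log2 difference was 2.81 ± 0.81 (SE), with an edgeR adjusted p of 0.0700. DESeq2 gave an adjusted p of 0.00551, edgeR without a filter on low counts 7.85e-04 and edgeR without Py230 library 3 0.0442. Without Py230 library 4, the highest, the log2 difference was 2.02 with an adjusted p of 0.294. Over all alternatives the adjusted p ran from 7.85e-04 to 0.327, the highest with the replicate block. The Angptl7 values rest on 0 to 56 reads per library. The bulk kit keeps strand, but how the reads were counted is not stated, so reads of Angptl7 and Mtor, of Chad and Acsf2, and of Scx and Bop1 may be mixed.

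Thbs4 stood at 14.5, 3.33, 16.9 and 10.5 CPM in tumour-free and at 11.9, 42.6, 175 and 134 CPM in Py230 libraries, and the groups overlapped (log2 2.98 ± 0.91, edgeR adjusted p 0.163, DESeq2 0.0114). Without Py230 library 3 the log2 difference of Thbs4 was 2.38 (edgeR adjusted p 0.305), and DESeq2 gave the 1 call among its alternatives, whose adjusted p otherwise ran from 0.0664 to 0.467. Chad stood at 4.41, 2.83, 3.79 and 1.74 CPM in tumour-free and at 2.80, 4.96, 8.43 and 4.99 CPM in Py230 libraries (log2 0.74 ± 0.40, edgeR adjusted p 0.396). Fmod stood at 14.8, 3.49, 24.9 and 15.1 CPM and 1.94, 17.1, 93.3 and 44.9 CPM (log2 1.44 ± 0.997, edgeR adjusted p 0.585), and without Py230 library 3 its log2 difference was 0.46. Py230 library 3 held the highest value of Chad, Fmod, Cilp2, Scx and Thbs4, and Py230 library 4 that of Angptl7.

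**Figure D5:**
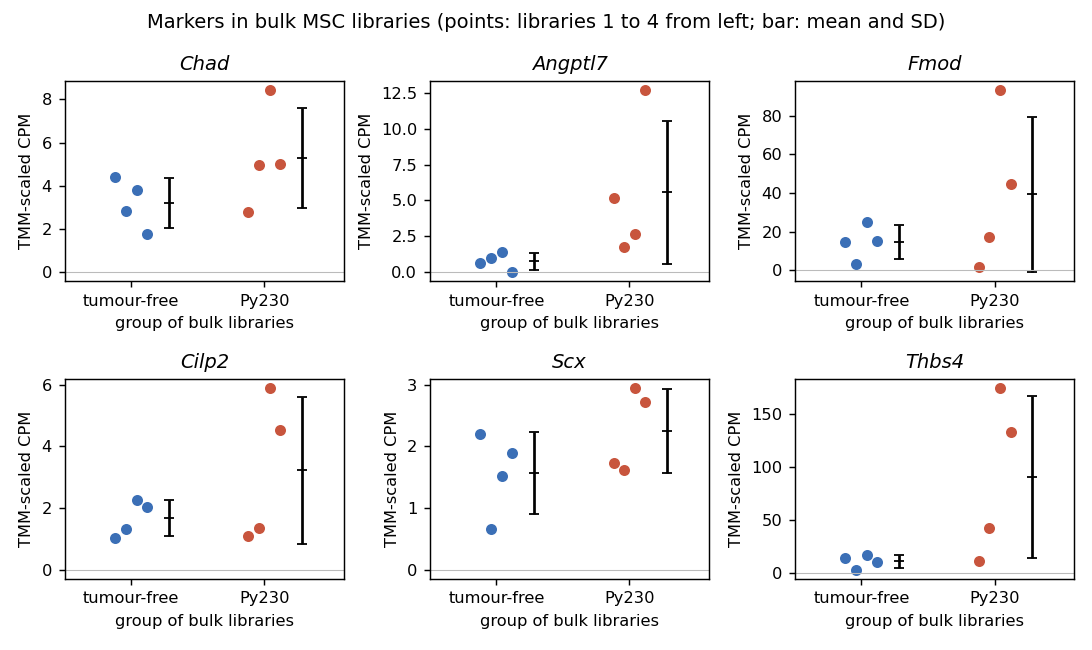
TMM-scaled CPM (y axis) of the 6 tested markers in each bulk MSC library of the tumour-free and Py230 groups (x axis), points left to right being libraries 1 to 4, with the mean and SD as a bar. Angptl7 does not overlap between groups, as in 5.36% of all genes tested with Py230 higher, and the other 5 overlap.

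Other matrix genes passed the bulk test. Of 155 tested genes of the 12 matrix and tendon lists, 27 passed, 12 higher and 15 lower with Py230 tumours; of all genes tested 4.73% passed. The groups of 39 of the 155 did not overlap, 26 of the 27 among them, and of all genes tested 5.36% did not overlap with Py230 higher and 5.61% with Py230 lower. Stromelysin 3 (Mmp11), a matrix protease, rose from 27.0 ± 2.02 to 71.0 ± 7.63 CPM (SD, n = 4 libraries each; edgeR adjusted p 4.29e-05). Dcn, the proteoglycan with the most UMIs in the tendon-like cells, rose from 156 ± 16.1 to 336 ± 56.3 CPM (edgeR adjusted p 2.65e-04). Mmp13 rose from 1024 ± 111 to 1624 ± 171 CPM (edgeR adjusted p 0.00446). The homeobox factor Meox1 rose from 5.13 ± 1.97 to 21.6 ± 3.87 CPM (edgeR adjusted p 6.17e-04). The proteoglycan osteoglycin (Ogn) fell from 252 ± 63.6 to 82.8 ± 24.4 CPM (edgeR adjusted p 0.00482). The cartilage factor Sox9 fell from 84.4 ± 14.2 to 49.6 ± 12.4 CPM (edgeR adjusted p 0.0177), the 1 gene of the 27 whose groups overlapped; without Py230 library 2 its adjusted p was 0.0656. Adamts1 fell from 2069.7 ± 270.4 to 1472 ± 143 CPM (edgeR adjusted p 0.0318) and lost its call without any 1 library other than tumour-free 4 and Py230 3, with adjusted p from 0.0717 to 0.148.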

How the data were processed

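Bone marrow stromal cells of 1 WT and 1 PyMT library were read as raw counts of UMIs per gene and cell, deposited by the authors, with the mitochondrial fraction and cluster number of each cell from the deposited metadata. Bulk MSC libraries were read as raw counts per gene, per the file headers. Cell Ranger 6.0.0, STAR 2.5.3a, Trim Galore and the build mm10 were used, per the submitters' processing notes; the bulk counter is not stated.

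UMIs were summed per library and population and scaled to CPM. Ratios carry 95% exact conditional Poisson intervals, genes with at least 50 UMIs were compared, 0 counts were set to a floor of 3, and at least 2-fold was called. Doublets were not called and were left in. For bulk, edgeR 4.0.16 under R 4.3.3 gave quasi-likelihood tests after TMM scaling and filterByExpr, adjusted by Benjamini-Hochberg, with DESeq2 1.42.0 as an alternative. Intervals and the bulk test were tested on simulated data. Figures used matplotlib 3.10.9 on Python 3.11.15.

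The genes named are the 8 markers, the 25 highest in members over the rest, the 15 highest and lowest over other cluster 1 cells, the 12 per direction with the interval farthest from 0 between genotypes, list members farthest from 0 or most abundant, the 5 most like Chad, and bulk markers and matrix genes past the test. Rankings without each gene's highest cell, and list members named for their role, were chosen after their values were seen. The members and lists were chosen with earlier results of these data known. The hematopoietic libraries were not analysed here. 1 gene that passed the bulk test is not reported here.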

Additional observations from a re-analysis of the deposited data

Results flagged for a closer look

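Epiphycan (Epyc), a proteoglycan of growth cartilage, had opposite genotype ratios within cluster 1. Its log2 ratio of PyMT over WT was 2.18, 1.76 to 2.62 in members, from 64 WT and 174 PyMT UMIs, and -2.40, -4.43 to -0.78 in the other cluster 1 cells, from 17 and 4 UMIs. The difference between the populations was not tested, since there was 1 library per genotype. Of 77 genes compared this way, Epyc was the 1 that met the rule.

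In 3 of 66 groups of 4 bulk libraries, 1 library stood far from the other 3. Chance gives about 1 in 20 such groups. Mmp11 stood at 24.0 CPM in tumour-free library 3, below the other tumour-free libraries. Fst stood at 138 CPM in tumour-free library 4, also below the others. Adamts15 stood at 58.6 CPM in tumour-free library 2, above the others.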

How the results depend on the processing

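Shares of members moved with the choice of cells. Over every deposited cell, members were 59.8% of WT and 43.5% of PyMT cluster 1 cells. With mitochondrial shares under 5%, they were 15.7% and 5.34% of WT and PyMT stromal cells, and 69.4% and 56.3% of cluster 1 cells. After thinning to 1500 UMIs they were 11.6% and 4.57% of WT and PyMT stromal cells, and 55.3% and 39.2% of cluster 1 cells. The genes at least 2-fold higher and lower in PyMT members were 72 and 31 of 1600 tested after thinning (4.50% and 1.94%), 480 and 239 of 8548 at a gene minimum of 20 UMIs (5.62% and 2.80%) and 51 and 18 of 1634 at 200 UMIs (3.12% and 1.10%). Without members holding a UMI of Lepr, Adipoq, Ptprc or Pecam1, 107 and 58 of 2067 were (5.18% and 2.81%). Angptl7 among members changed sign under 5% mitochondrial share (-0.08) and without cells holding those 4 genes (-0.24), and was at -7.24e-04 with median-ratio scaling. Without the 3 members rich in cartilage UMIs, a setting added after the data were seen, Cytl1 was at -1.30, against -2.54 with them.

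In bulk, a replicate block called 176 genes higher and 237 lower, and 10 of the 27 named genes that had passed lost their call. Same-numbered libraries did not deviate together (correlations -0.385 to 0.0151, 1 of 4 best with its own number), so the numbers were not taken as pairs. Leaving out each library gave 134 to 304 higher and 230 to 426 lower. Without tumour-free libraries 1, 2 or 3 or Py230 library 2, 147, 134, 188 and 181 were higher; without tumour-free libraries 1 or 2 or Py230 library 2, 230, 260 and 276 were lower. The 33 named bulk genes kept their direction under every alternative run. Kera and Tnmd, at 88 and 36 reads in all, fell below the filter on low counts; the 6 tested markers had up to 2989 reads each.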
